A study of Mus musculus with 13 samples.

Results

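Intergenic ESR1 peaks near genes were described in primary lower abdominal muscle (LAM) fibroblasts. A peak was taken as a member when its summit lay outside all annotated gene bodies and more than 3 kb but no more than 50 kb from the nearest transcription start site (TSS) of the GENCODE vM21 basic annotation of the mouse genome build mm10. This rule uses position alone. It found 145350 members among the 686823 peaks of 12 libraries, which is 21.2% of all peaks. Merging peaks that overlapped by at least 1 bp gave 228284 regions, of which 61129 were member regions, classed by their strongest peak.

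ESR1, the nuclear receptor for estradiol (E2), was mapped by chromatin immunoprecipitation and sequencing (ChIP-Seq) in 4 treatments with 3 libraries each. All cells were passage 1 fibroblasts of Aromhum mice on the FVB/N strain, which carry the human aromatase gene, so vehicle cells shared this transgene with treated cells. After serum starvation overnight they were pretreated for 3 h with 100 nM fulvestrant or its solvent DMSO and then treated for 1 h with 10 nM E2 or ethanol, which gave vehicle, E2, E2 plus fulvestrant, and fulvestrant groups. Nothing in the labels says that the 3 libraries of a group came from separate cultures, so p-values measure only the spread between these libraries.

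ESR1 is a ligand-activated transcription factor that binds DNA as a dimer. Its classic site, the estrogen response element (ERE), is an inverted repeat of a short half-site around a short spacer, and the receptor can also be held at DNA through other factors such as AP-1. Much of its binding lies away from promoters, in enhancers that can act on genes at a distance, so the gene nearest to a peak is an annotation and not a known target. Fulvestrant is an ESR1 antagonist that also promotes loss of the receptor.

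The lists held 34293 to 104571 peaks, and the read depth behind them is unknown here. E2 replicate 1 and fulvestrant replicate 2 stood apart from the other libraries. Over 50% of the bases around the summit were soft-masked repeats in 79.9% of the members of E2 replicate 1 and 47.8% of those of fulvestrant replicate 2, against 8.5% to 13.1% in the other 10 libraries. Results that rest on these libraries are given with and without them.

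The strongest members with an ERE in all 12 lists are shown first, because EREs were most frequent at the strongest members and the difference between libraries given E2 and not given E2 was larger at members with an ERE. An ERE here is GGTCA and TGACC with 3 bases between them and no more than 1 mismatch, within 100 bp of the summit of the strongest peak. Each line is 121 bases of the mm10 plus strand with the ERE in capitals.
Zcchc10, chr11:53314819-53314939: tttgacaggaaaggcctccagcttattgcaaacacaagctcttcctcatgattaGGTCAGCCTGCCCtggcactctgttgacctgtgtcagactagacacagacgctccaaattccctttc
Gm14215, chr2:154716755-154716875: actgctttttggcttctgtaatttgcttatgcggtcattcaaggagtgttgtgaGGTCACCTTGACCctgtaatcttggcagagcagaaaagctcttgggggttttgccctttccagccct
Gm40038, chr3:41182767-41182887: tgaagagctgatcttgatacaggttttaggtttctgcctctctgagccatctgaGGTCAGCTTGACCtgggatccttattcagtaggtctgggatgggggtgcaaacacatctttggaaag
Cap1, chr4:122891466-122891586: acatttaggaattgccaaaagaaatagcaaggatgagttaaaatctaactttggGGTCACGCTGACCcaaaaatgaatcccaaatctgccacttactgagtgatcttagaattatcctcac
Ptbp1, chr10:79841180-79841300: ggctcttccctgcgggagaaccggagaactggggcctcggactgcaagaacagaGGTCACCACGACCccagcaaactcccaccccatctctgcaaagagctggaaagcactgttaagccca
Gm15754, chr5:118458795-118458915: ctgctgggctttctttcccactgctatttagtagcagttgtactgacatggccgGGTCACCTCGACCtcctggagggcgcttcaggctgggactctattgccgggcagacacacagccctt
Gm5608, chr8:13529991-13530111: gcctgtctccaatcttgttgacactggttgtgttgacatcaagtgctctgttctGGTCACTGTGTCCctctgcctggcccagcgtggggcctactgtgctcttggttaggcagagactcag
5430440P10Rik, chr14:105417864-105417984: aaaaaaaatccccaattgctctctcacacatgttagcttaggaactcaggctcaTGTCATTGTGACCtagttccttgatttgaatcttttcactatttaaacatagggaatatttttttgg
Sites at Gm14215, Gm40038 and Cap1 had no mismatch to the half-sites. Counting from 1 at the 5′ end of the capitals, and giving the consensus base first, the Zcchc10 site had A11C, the Ptbp1 and Gm15754 sites had T9C, the Gm5608 site had A11T and the 5430440P10Rik site had G1T.

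The next set holds members whose rank or presence moved between treatments in the comparisons given further on, with an ERE in capitals except at Tspan13. There the capitals mark a match to TGANTCA, the letters searched for AP-1, with T at the open position N. An AP-1 site here means any match to these letters, and binding of AP-1 was not tested.
AC163635.1, chr17:29428417-29428537: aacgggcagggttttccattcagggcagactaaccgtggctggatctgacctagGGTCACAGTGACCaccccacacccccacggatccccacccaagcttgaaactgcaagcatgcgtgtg
Gadd45b, chr10:80936464-80936584: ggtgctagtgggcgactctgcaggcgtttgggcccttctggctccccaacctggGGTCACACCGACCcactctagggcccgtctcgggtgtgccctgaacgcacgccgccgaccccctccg
1700063K16Rik, chr16:76814088-76814208: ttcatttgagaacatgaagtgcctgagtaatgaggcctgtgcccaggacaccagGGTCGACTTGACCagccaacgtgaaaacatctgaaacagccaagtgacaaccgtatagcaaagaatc
Ccn5, chr2:163804021-163804141: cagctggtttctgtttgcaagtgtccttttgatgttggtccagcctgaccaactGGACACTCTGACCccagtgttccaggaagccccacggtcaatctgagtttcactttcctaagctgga
Tspan13, chr12:36064505-36064625: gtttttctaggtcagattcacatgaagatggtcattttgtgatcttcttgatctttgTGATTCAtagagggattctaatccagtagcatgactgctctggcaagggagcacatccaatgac
AC163635.1 had no mismatch, and Gadd45b had T9C, 1700063K16Rik had A5G and Ccn5 had T3A by the same count.

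The number of members differed widely between libraries of the same treatment. Vehicle libraries held 9597, 5781 and 7275 members, and E2 libraries 31041, 12489 and 14167. Libraries of E2 plus fulvestrant held 7489, 10199 and 13504, and fulvestrant libraries 7783, 17586 and 8439. All E2 lists lay above all vehicle lists, whereas E2 and E2 plus fulvestrant overlapped. As a share of the library's peaks, members made up 18% ± 0.980 (SD, n = 3) in vehicle, 23.6% ± 5.29 in E2, 19.6% ± 1.13 in E2 plus fulvestrant and 19.5% ± 1.97 in fulvestrant.

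None of the 7 comparisons of number or share passed an adjusted p of 0.05. In share, E2 differed from vehicle by 5.62 percentage points and from E2 plus fulvestrant by 4.00, each with no overlap between groups and an adjusted p of 0.140 in the exact two-sided permutation test over libraries. With 3 libraries against 3 that test cannot go below 0.1 before adjustment. The share of E2 minus E2 plus fulvestrant was 0.944 without E2 replicate 1 and fulvestrant replicate 2, and it turned to −0.664 when repeat-masked peaks were removed from all lists.

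**Figure D1:**
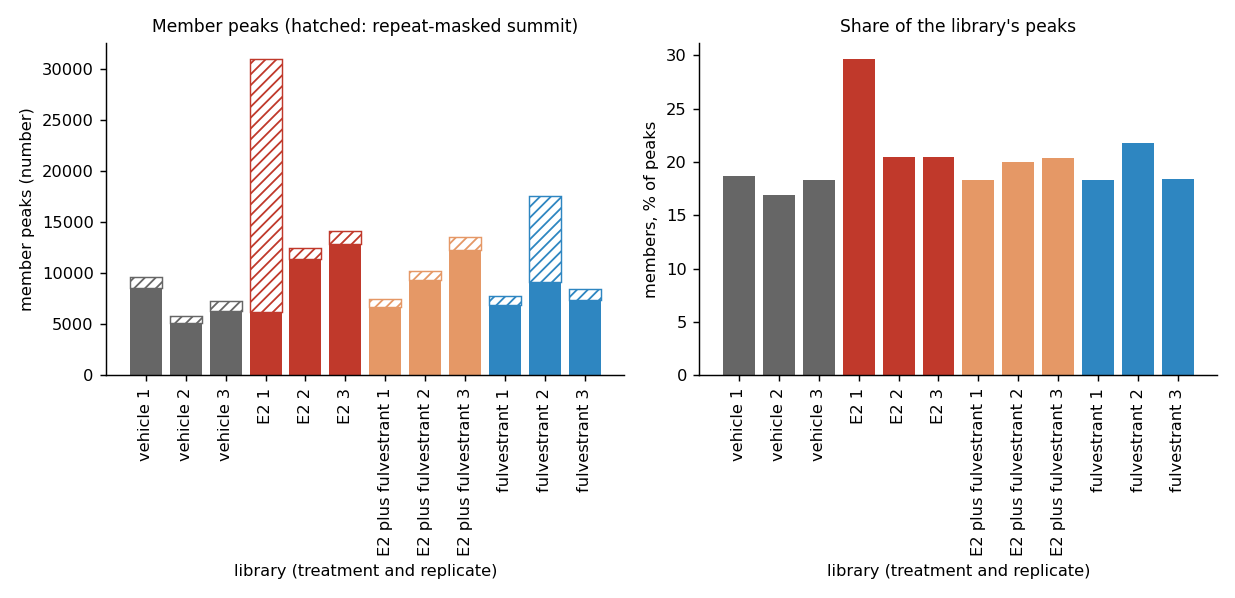
Members in each of the 12 libraries, as a number of peaks on the left (the hatched part has a repeat-masked summit window) and as a percent of the library's peaks on the right. E2 replicate 1 is highest in both panels with 31041 members and a share of 29.7%, and most of its bar is hatched.

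Members were of middling strength within their lists. Peaks were ranked in each library by the −log10 p of the peak caller and given a rank percentile, where 0 is the strongest. The median percentile of members averaged 55.6 over the 12 libraries, against 33.9 for promoter peaks, 59.1 for intronic peaks and 56.2 for intergenic peaks beyond 50 kb. Members were stronger than intronic peaks by 3.49 points in the exact sign-flip permutation test over libraries (adjusted p = 0.00293), and were weaker in 0 of the 12 libraries. The difference of −0.510 from intergenic peaks beyond 50 kb was within the spread between libraries (exact sign-flip permutation test, adjusted p = 0.515).

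The same member led the lists of different treatments. A peak 9.79 kb upstream of Zcchc10 was the best-ranked member in 7 of the 12 libraries, with a fold enrichment of 33.9 and 32.5 in E2 replicates 2 and 3 and of 20.1 and 18.8 in vehicle replicates 2 and 3. Its region, chr11:53314178-53316327, ranked 6, 4 and 4 in the vehicle lists, 192, 3 and 3 in the E2 lists, 9, 4 and 2 in E2 plus fulvestrant and 7, 134 and 7 in fulvestrant. It was among the 10 strongest peaks of every list except those of E2 replicate 1 and fulvestrant replicate 2.

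Other regions found in all 12 lists kept high ranks in the same way. The Gm14215 region on chr2:154715539-154717924, 3.10 kb upstream of a processed pseudogene, ranked 7, 9 and 6 in vehicle, 5392.5, 4.5 and 5 in E2, 6, 8 and 6 in E2 plus fulvestrant and 9, 331 and 6 in fulvestrant. The Cap1 region on chr4:122890125-122892739, 5.44 kb upstream of the gene of an actin-binding cyclase-associated protein, ranked 8, 6 and 13 in vehicle, 6135, 10 and 11 in E2, 15, 13 and 10 in E2 plus fulvestrant and 13, 73 and 16 in fulvestrant. Both were far down the list of E2 replicate 1 and among the strongest 20 peaks in each of the 10 libraries that did not stand apart.

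The 10 strongest recurrent regions had Zcchc10, Mir26b, Gm14215, Gm40038, Cap1, 4930429H19Rik, Gm14488, 4930517M08Rik, Ptbp1 and Gm21182 as nearest genes. Of these, 5 had an ERE (Zcchc10, Gm14215, Gm40038, Cap1 and Ptbp1, the gene of a splicing repressor), and the 4930429H19Rik region had an AP-1 site. The summit window of the 4930517M08Rik region was 90% soft-masked repeat. Its list rank was 4, 62 and 27 in vehicle, 83, 269 and 7126.5 in E2, 188, 52 and 317 in E2 plus fulvestrant and 24, 71 and 26 in fulvestrant. E2 replicate 3 was far below the others, and E2 minus vehicle did not pass in limma in 12 libraries (−4.46, adjusted p = 0.678).

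A larger share of members fell in the strongest 10% of their own list in libraries given E2. The lists ran from 40939 to 104571 peaks with E2 and from 34293 to 80754 without, so this cut takes a different number of peaks in each, and the part of list length in the result was not tested. The share was 4.64%, 4.84% and 5.13% of members in vehicle, 5.49%, 9.31% and 7.01% in E2, 6.45%, 9.75% and 10.1% in E2 plus fulvestrant, and 4.28%, 2.10% and 5.15% in fulvestrant. All 6 libraries given E2, with or without fulvestrant, lay above all 6 that were not. The difference in means was 3.65 percentage points (exact permutation test, adjusted p = 0.0152). This measure was added after the data had been seen. The difference was 3.71 (adjusted p = 0.0556, exact permutation test) without E2 replicate 1 and fulvestrant replicate 2, and 3.26 (adjusted p = 0.350, exact permutation test) without repeat-masked peaks. Without those peaks the share of E2 replicate 1 was 2.06%, below all vehicle libraries, so the groups overlapped. With all peaks kept, the share averaged 6.18% of members, 4.51% of intronic peaks and 18.3% of promoter peaks over the 12 libraries. It was 6.26% of intergenic peaks beyond 50 kb, not set apart from members (exact sign-flip permutation test, adjusted p = 0.779). The difference with E2 was not tested in the other classes.

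E2 and E2 plus fulvestrant were not separated by that share. E2 minus E2 plus fulvestrant was −1.49 percentage points (exact permutation test, adjusted p = 0.407) in all libraries and −0.595 without the 2 libraries that stood apart.

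An ERE was present at few members, but above its background. Over the 12 libraries 2.70% of members had an ERE within 100 bp of the summit, against 0.674% of windows of the same length 2 kb upstream of the summits (exact sign-flip permutation test, adjusted p = 0.00502, higher in 11 of 12 libraries). The exception was E2 replicate 1, with 0.757% at members and 1.21% in the background windows. The share was 1.21% at promoter peaks, 2.48% at intronic peaks and 3.12% at intergenic peaks beyond 50 kb, and each of these differed from members (adjusted p = 0.00146, 0.00732 and 0.00366, exact sign-flip permutation tests over 12 libraries).

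The ERE was concentrated at the strongest members. Among the 100 best-ranked members of each library it was present in 46.4% in the 5 libraries given E2 and in 29.6% in the 5 not given E2 that did not stand apart, and in 5.0% in the 2 that did. At member ranks 2001 to 5000 the same shares were 3.32%, 1.71% and 0.783%. The strongest members were therefore the ERE-rich ones in every treatment, vehicle included.

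Among the 500 highest-ranked members of each library, 12.6%, 12.4% and 13% had an ERE in vehicle and 0.800%, 26.4% and 22.2% in E2. The shares were 22.4%, 26.2% and 25.6% in E2 plus fulvestrant and 11.6%, 4.20% and 11.8% in fulvestrant. All libraries given E2 except E2 replicate 1 lay above all libraries not given it, and that library lay below them all.

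The 6 libraries given E2 exceeded the 6 others by 9.67 percentage points in this share (p = 0.0584, adjusted p = 0.233, exact permutation test). Without E2 replicate 1 alone the difference was 13.6 (adjusted p = 0.0152), and over all members it was 1.43 (adjusted p = 0.0152) against 0.947 with that library (exact permutation tests, adjusted p = 0.477 with it). Without both libraries that stood apart the difference at the 500 strongest was 12.3 with no overlap (p = 0.00794, the smallest that the exact permutation test can give there, adjusted p = 0.0556). E2 minus E2 plus fulvestrant was then −0.433 percentage points (exact permutation test, adjusted p = 0.900).

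**Figure D2:**
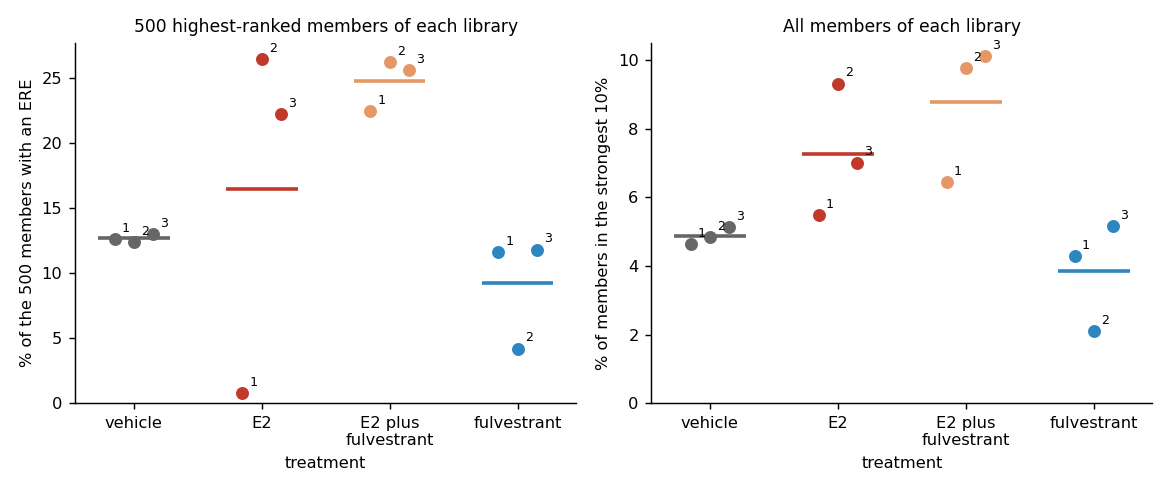
Percent of the 500 highest-ranked members of each library with an ERE (left) and percent of all members that were in the strongest 10% of the library's peaks (right), by treatment. Points are libraries with their replicate number and bars are group means. E2 replicates 2 and 3 and all E2 plus fulvestrant libraries lie above vehicle and fulvestrant in both panels, while E2 replicate 1 is at 0.800% on the left.

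Matches to the AP-1 letters were the most frequent of the motifs searched, and these letters take any base in the middle. The letters TGANTCA on either strand were found at 9.44% of members and at 6.44% of the background windows (adjusted p = 0.0276, exact sign-flip permutation test over 12 libraries), against 4.10% at promoters and 10.7% at intergenic peaks beyond 50 kb. The first 3 letters of this motif are shared with the TGACC half-site, and the motifs were counted independently. The CTCF letters, CCA and AG and GGC with 2 bases between each, were found at 1.28% of members and 1.43% of background windows. Intergenic peaks beyond 50 kb held them less often, at 0.758% (adjusted p = 0.00234, exact sign-flip permutation test, lower in 12 of 12 libraries).

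Distance to the TSS within the 3 to 50 kb window made no detectable difference to median rank or ERE share over the 12 libraries. Members lay 3 to 5 kb away in 10.5%, 5 to 10 kb in 22.5%, 10 to 20 kb in 28.6% and 20 to 50 kb in 38.4%. The median rank percentile was 55.8 at 3 to 5 kb and 55.4 at 20 to 50 kb (adjusted p = 0.734), and the ERE share was 2.61% and 2.75% (adjusted p = 0.508, exact sign-flip permutation tests over 12 libraries). The share in the strongest 10% of the list averaged 5.85% and 6.37% (same test, adjusted p = 0.508). In every library given E2 it was higher at 20 to 50 kb, such as 10.5% against 8.22% in E2 replicate 2. In every library not given E2 it was lower there, such as 4.22% against 5.05% in vehicle replicate 1. This contrast was not tested. At the edges of the rule, peaks at 2 to 3 kb outside genes had a median percentile of 56.9 and those at 3 to 4 kb 55.9, while those at 45 to 50 kb had 57.6 and those at 50 to 55 kb had 54.9.

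The nearest gene was most often not a coding gene. Of the 61129 member regions, 32.8% had a protein-coding gene as the nearest gene, 25.7% a processed pseudogene and 17.5% a lincRNA gene. The summit was upstream of the TSS in 58.0%, and the median distance was 15.9 kb. The median distance to the nearest coding TSS was 43.5 kb, and 54.1% had a coding TSS within 50 kb, so near genes means near annotated genes of any type. Among the 590 member regions found in all 12 lists the coding share was 40.7% and the median distance to a coding TSS was 29.3 kb.

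Most genes had few recurrent members. A member region found in at least 10 lists lay nearest to 1737 genes, and 1394 of them had only 1. The most were 8 regions for Gm25283, a misc_RNA gene for which the nearest coding gene was Ezh2, the histone methyltransferase of the Polycomb complex. Then came 5830428M24Rik and Mir3966 with 7 each and Gm26682 with 6. The Mir3966 regions spanned chr10:97377813-97442235 and had Dcn, the gene of the matrix proteoglycan decorin, as the nearest coding gene. Gm25888 (coding neighbors Irf2bpl and Lrrc74a), Gm35333 (Dapk1), Gm14642 (1700021F07Rik and Pmepa1), Gm15428 (Angptl1 and Fam20b), A730020M07Rik (4930432M17Rik) and Gm47850 (Plpp1) had 5 each. They are 6 of the 13 genes with 5, taken by the lowest mean rank percentile of their best region.

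Most member regions were found in a single list. Of the 61129, 41979 (68.7%) were in 1 list, 19150 (31.3%) in at least 2, 2239 (3.66%) in at least 10 and 590 (0.965%) in all 12. The same shares over all regions were 64.2%, 35.8%, 6.96% and 3.42%, so most regions of the whole series were also in a single list. E2 replicate 1 alone accounted for 23232 (55.3%) of the single-list member regions and fulvestrant replicate 2 for 6474 (15.4%). Promoter regions were in all 12 lists in 13.7%, intronic regions in 0.901% and intergenic regions beyond 50 kb in 0.380%. Without E2 replicate 1, 1185 member regions were in all remaining lists, and without both libraries that stood apart 1661 were.

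Counted per peak, members were shared between libraries slightly more than other distal peaks. Counted per region, the order against intronic regions was reversed. Of member regions 31.3% were in at least 2 lists, against 33.2% of intronic regions and 26.8% of intergenic regions beyond 50 kb. On average 80.5% of a library's member peaks lay in a region found in another list, against 77.9% of intronic peaks (adjusted p = 0.0249), 78.9% of intergenic peaks beyond 50 kb (adjusted p = 0.0293) and 92.2% of promoter peaks (adjusted p = 0.00146, exact sign-flip permutation tests over 12 libraries). The difference from peaks beyond 50 kb, 1.6 percentage points, lost its call when vehicle replicate 1 or 3, E2 plus fulvestrant replicate 1 or 2, or fulvestrant replicate 1 or 3 was left out (1.39 to 1.59, adjusted p = 0.0518 to 0.0723, exact permutation tests).

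**Figure D3:**
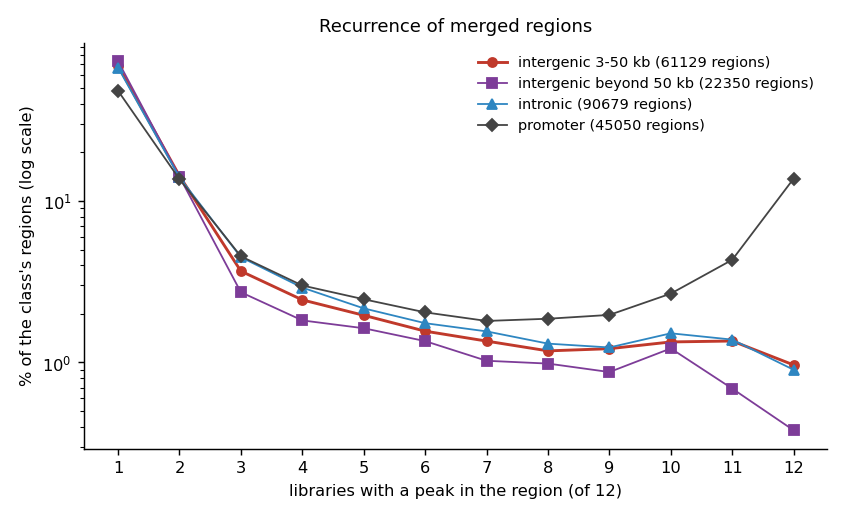
Percent of merged regions of each class, on a log scale, by the number of the 12 libraries with a peak in the region. Member regions fall from 68.7% in 1 list to 0.965% in all 12, while promoter regions turn up again to 13.7% in all 12.

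Recurrent members were stronger, wider and richer in EREs than single-list members. The ERE share was 0.858% in regions of 1 list, 1.76% in 2 to 5, 3.91% in 6 to 9, 5.94% in 10 to 11 and 7.12% in all 12. The median of the mean rank percentile went from 68.2 in 1 list to 19.2 in 12, and the median width from 306 to 2580 bp. Repeat-masked summits made up 58.4% of single-list regions and 7.80% of those in all 12. AP-1 sites were at 4.66% of single-list regions, 13.4% of those in 6 to 9 lists and 8.14% of those in all 12. Width and recurrence are not independent here, because merging wide peaks joins more lists.

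Recurrence within a treatment differed with the libraries that stood apart. Of the member regions with a peak in a treatment, all 3 libraries held 2250 (19.9%) in vehicle, 1419 (3.20%) in E2, 3696 (24.0%) in E2 plus fulvestrant and 2020 (9.18%) in fulvestrant. The low shares of E2 and fulvestrant were those of the treatments with E2 replicate 1 and fulvestrant replicate 2. Counting a treatment only when all 3 of its libraries had a peak, 1347 member regions (2.20%, all regions 2.02%) were complete in E2 plus fulvestrant only and 310 (0.507%, all regions 0.816%) in E2 only. A further 591 (0.967%, all regions 1.12%) were complete in every treatment but E2, and 563 (0.921%, all regions 0.899%) in vehicle and E2 plus fulvestrant. The 590 complete in all 4 treatments (0.965%) compare with 3.42% of all regions.

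Few member regions were present in all libraries of a treatment and absent from another. The count in 3 of 3 E2 libraries but 0 of 3 E2 plus fulvestrant libraries was 79 of 61129 member regions (0.129%), against 0.207% of all regions, and the reverse count was 47 (0.0769%), against 0.0732%. For E2 against vehicle the counts were 159 (0.260%, all regions 0.344%) and, in reverse, 16 (0.0262%, all regions 0.0162%). For E2 plus fulvestrant against vehicle they were 404 (0.661%, all regions 0.569%) and, in reverse, 24 (0.0393%, all regions 0.0434%). The member share was below that of all regions in both counts of regions gained with E2 alone, and slightly above it for E2 plus fulvestrant, which was not tested.

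These counts depended on single libraries, and leaving a library out also eases the rule to 2 of 2. The shares over all regions are not given for the counts that follow, so they do not set members apart from other regions. The count in E2 and not in E2 plus fulvestrant became 834, 246 and 165 without E2 replicates 1, 2 and 3, and 120 and 157 without E2 plus fulvestrant replicates 2 and 3. The reverse count became 109 and 125 without E2 replicates 2 and 3, and 338, 124 and 94 without E2 plus fulvestrant replicates 1, 2 and 3. The count in E2 and not in vehicle became 2048, 347 and 246 without E2 replicates 1, 2 and 3 and 329 without vehicle replicate 1. The count in E2 plus fulvestrant and not in vehicle became 1371 when E2 plus fulvestrant replicate 1 was left out and 833 when vehicle replicate 1 was.

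The members that separated E2 from E2 plus fulvestrant were of moderate rank. The best-ranked of the 79 was 5.88 kb upstream of Gstp3, a glutathione S-transferase gene, with ranks 13157.5, 15050.5 and 30089 in E2 and 20041, 10068 and 17030.5 in fulvestrant. Its summit window was fully soft-masked repeat. The next were near Tle2, a transcriptional corepressor gene, and Gm23590. In the other direction the best-ranked were near 4930425P05Rik, with an ERE, Gm33819, and Gm49608, with an AP-1 site. Of the 404 member regions present in E2 plus fulvestrant and absent from vehicle, 10.6% had an ERE. The share was 3.14% of the 159 present in E2 and absent from vehicle, of which 31.4% were repeat-masked, and 1.27% of the 79 and 2.13% of the 47 that separated E2 from E2 plus fulvestrant.

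No region passed an adjusted p of 0.05 in Fisher's exact test of presence in the 6 libraries given E2 against the 6 not given it (0% of 228284 regions). The smallest p this Fisher's exact test can give is 0.00216, before adjustment over 228284 regions. It therefore could not call a small number of regions, and the lack of calls does not show that presence was alike. At an unadjusted p under 0.05 there were 369 regions, of which 364 were present more often with E2 (0.159% of all regions) and 5 less often. Members made up 110 of the former, a similar share of the member regions (0.180%), and 0 of the latter. The 9 regions present in 6 of 6 and 0 of 6 libraries included 3 members, near Ccn5, Gm3045 and Gm31463 (unadjusted p = 0.00216, adjusted p = 1.00, Fisher's exact test). Ccn5 encodes a matricellular protein of the CCN family that is known as an estrogen-responsive gene. Its member 16.8 kb upstream ranked 16842, 14976 and 24737 in E2 and 28683.5, 5183 and 21681 in E2 plus fulvestrant, and no vehicle or fulvestrant list held a peak there.

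Strength was compared at the 7816 regions common to all 12 lists, of which 590 were members. Each library's regions were ranked by −log10 p, and limma was run on −log2 of the rank percentile, so that a difference of 1 is a halving of the percentile and a positive value means stronger. In the 6 libraries given E2 against the 6 not given it, 39 of 590 member regions (6.61%) were stronger at an adjusted p of 0.05, against 1.32% of all common regions. None was weaker, as in all common regions (0%). The median difference was 0.19 in members and −0.03 in all common regions, most of which were promoter regions. By class, 4.90% of intronic regions, 3.53% of intergenic regions beyond 50 kb and 0.323% of promoter regions were stronger. Their median differences were 0.127, 0.440 and −0.0693.

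The count of stronger members moved with single libraries. Leaving a library out also changed the set of common regions, which was larger without E2 replicate 1. These counts are therefore not shares of the same set, and the shares over all common regions are not given for them. It was 219 without E2 replicate 1 and 71 when E2 plus fulvestrant replicate 1 was left out. On leaving out vehicle replicates 1, 2 and 3 it was 13, 20 and 19. It was 19 and 25 without E2 replicates 2 and 3, 13 and 17 without E2 plus fulvestrant replicates 2 and 3, and 23 and 21 without fulvestrant replicates 1 and 2. Leaving out vehicle replicate 3 or E2 replicate 1 gave 1 weaker member.

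Without both libraries that stood apart there were 12343 common regions, of which 1661 were members. Of these, 313 (18.8%) were stronger with E2, against 7.75% of all common regions, and 8 (0.482%) were weaker, against 1.49%. In this fit stronger regions made up 27.1% of intergenic regions beyond 50 kb, 15.8% of intronic regions and 1.46% of promoter regions. Weaker regions made up 0%, 0.157% and 2.25% of the same classes, so most weaker regions were at promoters.

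E2 and E2 plus fulvestrant differed at few members. In all 12 libraries 1 member, near 1700063K16Rik, was weaker in E2 than in E2 plus fulvestrant, and 2 regions were among all common ones (0.0256%). In 10 libraries it was 1 member near Gm26682, and 0.0324% of all common regions. Against vehicle in 12 libraries, 0 of 590 members were stronger in E2, where only 3 of all 7816 common regions were. In E2 plus fulvestrant 4 members (0.678%) were stronger than in vehicle, against 0.205% of all common regions. In 10 libraries these were 135 (8.13%, all common regions 3.37%) and 191 (11.5%, all common regions 4.84%). The difference of differences, E2 minus vehicle against E2 plus fulvestrant minus fulvestrant, gave 0 members past the adjusted p of 0.05 in limma in both sets, with 52 and 66 at an unadjusted p under 0.05. These were 8.81% and 3.97% of members, against 5.96% and 3.99% of all common regions.

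The counts against vehicle also moved with E2 replicate 1, and the set of common regions was again larger without it. The shares over all common regions are again not given. Without E2 replicate 1, 79 members were stronger in E2 and 118 in E2 plus fulvestrant than in vehicle. The count for E2 plus fulvestrant was 37 and 12 without E2 replicates 2 and 3, 37, 0 and 0 on leaving out E2 plus fulvestrant replicates 1, 2 and 3, and 0, 1 and 1 on leaving out the vehicle libraries. The count for E2 was 2 without E2 replicate 3.

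Among the 5 stronger members with the smallest adjusted p in 12 libraries, the largest difference was nearest to AC163635.1, at chr17:29427680-29428956, 6.28 kb downstream of that transcript's start and 59.5 kb from the TSS of Fgd2, which encodes a guanine nucleotide exchange factor. Among the 7816 common regions it ranked 7629, 5947 and 4669.5 in vehicle, 7682.5, 172 and 138 in E2, 561.5, 202 and 178 in E2 plus fulvestrant and 7351.5, 7513 and 5851.5 in fulvestrant. The libraries given E2 lay far above the others except E2 replicate 1, which was the lowest of all. The difference was 4.03 ± 0.697 (SE; limma, adjusted p = 0.00387).

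The Gadd45b member lay at chr10:80935169-80937302, 6.38 kb downstream of the TSS of this growth arrest and DNA damage gene. It ranked 2366, 4683.5 and 2358.5 in vehicle, 43, 149 and 1043 in E2, 1348, 216 and 287.5 in E2 plus fulvestrant and 7488.5, 2374 and 6494.5 in fulvestrant. All 6 libraries given E2 lay above all 6 not given it, E2 replicate 1 included. The difference was 3.73 ± 0.668 (SE; limma, adjusted p = 0.00496).

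The Gm38199 member, 22.4 kb upstream of a transcript model that awaits experimental evidence, and the Gm35608 member, 41.2 kb from the TSS of the collagen gene Col6a2, also had no overlap between groups. The first ranked 963, 1374.5 and 3014 in vehicle, 390, 174 and 562.5 in E2, 564.5, 195 and 306 in E2 plus fulvestrant and 5134.5, 6538.5 and 6123 in fulvestrant. The second ranked 6413, 4727 and 4422.5 in vehicle, 2170, 256 and 601 in E2, 1621.5, 463 and 284 in E2 plus fulvestrant and 6002.5, 4530 and 7067 in fulvestrant. Neither had an ERE. Their differences were 3.22 ± 0.524 and 3.08 ± 0.520 (SE; limma, adjusted p = 0.00336 and 0.00372).

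The Gm23581 member, 115 kb from the TSS of the mechanosensitive channel gene Piezo2 and with an ERE, differed by 3.66 ± 0.608 (SE; limma, adjusted p = 0.00336). It ranked 3686, 6684 and 4979.5 in vehicle, 5280, 187 and 469 in E2, 212, 189 and 201 in E2 plus fulvestrant and 2772.5, 6719 and 6593.5 in fulvestrant. As at AC163635.1, E2 replicate 1 lay with the libraries not given E2.

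The 1700063K16Rik member at chr16:76813668-76817133 was stronger in E2 plus fulvestrant than in E2. It ranked 6105.5, 1643.5 and 3998 in E2 and 532.5, 281.5 and 222 in E2 plus fulvestrant, against 5426, 4439.5 and 3695 in vehicle and 3405, 7116.5 and 3030.5 in fulvestrant. The groups of the comparison did not overlap, and E2 minus E2 plus fulvestrant was −3.41 (limma, adjusted p = 0.0449). The call held only without E2 replicate 2 or E2 plus fulvestrant replicate 1, and it was lost when any other of the 12 libraries was left out (adjusted p = 0.0608 to 0.431 in limma). This member was also among the 39 stronger in libraries given E2 (2.04 ± 0.440, SE, limma, adjusted p = 0.0171). Its E2 ranks overlapped with vehicle, so a call of stronger with E2 need not hold for E2 alone.

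**Figure D4:**
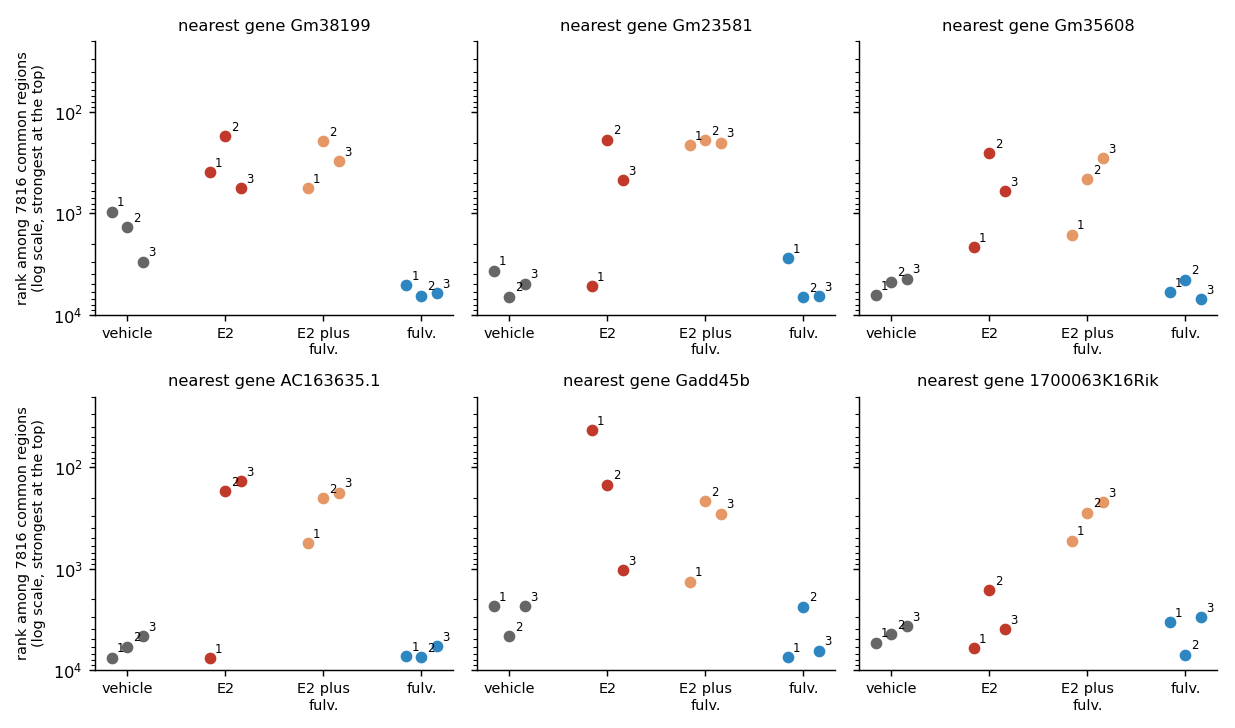
Rank of 6 named member regions among the 7816 regions common to all 12 lists, on a log scale with the strongest at the top, by treatment. Points are libraries with their replicate number. The first 5 panels are regions stronger with E2, where E2 replicate 1 lies low at Gm23581 and AC163635.1. The last is the region weaker in E2 than in E2 plus fulvestrant, which was also called stronger in the libraries given E2.

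In the 10 libraries the largest members by adjusted p were near AC163635.1, Rpl9-ps8, Tspan13, Platr6 and Gm45880. The Tspan13 member, 22.1 kb upstream of this tetraspanin gene and with the AP-1 site shown above, ranked 2642, 4434.5 and 3971 of 12343 in vehicle, 134 and 157 in E2, 111, 197 and 191.5 in E2 plus fulvestrant and 2056 and 4130 in fulvestrant. All libraries given E2 were above all others (4.41 ± 0.502, SE, limma, adjusted p = 4.76e-07). The Platr6 member, 59.6 kb from the TSS of the steroid-regulated kinase gene Sgk1, differed by 4.00 ± 0.478 (SE; limma, adjusted p = 6.84e-07).

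The Gm26682 member, 9.42 kb from a lincRNA start and with an ERE, ranked high in both treatments with fulvestrant. Its ranks were 10676, 9041 and 7070.5 of 12343 in vehicle, 784.5 and 2454 in E2, 72, 50 and 64 in E2 plus fulvestrant and 94 and 72 in fulvestrant. E2 minus E2 plus fulvestrant was −4.51 (limma, adjusted p = 0.00468). This member was also among the 313 stronger with E2 (1.55 ± 0.509, SE, limma, adjusted p = 0.0493), although both fulvestrant libraries ranked above both E2 libraries.

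Members weaker with E2 in 10 libraries included those near 4930517M08Rik, Tnrc18, Mir26b, Gm21182 and Col6a1. The Tnrc18 region ranked 120, 62 and 117.5 in vehicle, 478 and 238 in E2, 260, 513 and 606 in E2 plus fulvestrant and 64 and 93 in fulvestrant. It kept a place among the strongest common regions in every library, and the groups did not overlap (−2.16 ± 0.495, SE, limma, adjusted p = 0.00254). None of these 5 regions had an ERE, and the Col6a1 region had the CTCF letters.

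The difference in strength was larger at members with an ERE. In 12 libraries the 42 with an ERE had a median difference of 1.89 and 13 of them (31.0%) were stronger, whereas the 548 without had a median of 0.14 and 26 (4.74%) were stronger. Over all common regions the stronger shares were 18.8% of 207 with an ERE and 0.841% without, a contrast of the same direction. In 10 libraries 83 of 119 with an ERE (69.7%) were stronger with a median of 2.04, and 230 of 1542 without (14.9%) with a median of 0.13, against 60.9% and 5.65% over all common regions. Members with an AP-1 site had a median of 0.61 in 12 libraries, and 6 of 48 (12.5%) were stronger, against 7.39% of all common regions with that site.

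Within each library, members with an ERE were also compared with those without at the 590 common regions. The median strength with an ERE exceeded that without by 1.95, 2.28 and 2.96 in vehicle and by −0.12, 4.96 and 5.18 in E2. The same difference was 4.71, 4.89 and 4.70 in E2 plus fulvestrant and 1.68, −0.09 and 1.72 in fulvestrant. It was near 0 in the 2 libraries that stood apart, and among the other 10 it was higher in all 5 given E2 than in all 5 not given it (difference 2.77, p = 0.00794, adjusted p = 0.0556, exact permutation test). In all 12 the difference was 2.30 (adjusted p = 0.233, exact permutation test).

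**Figure D5:**
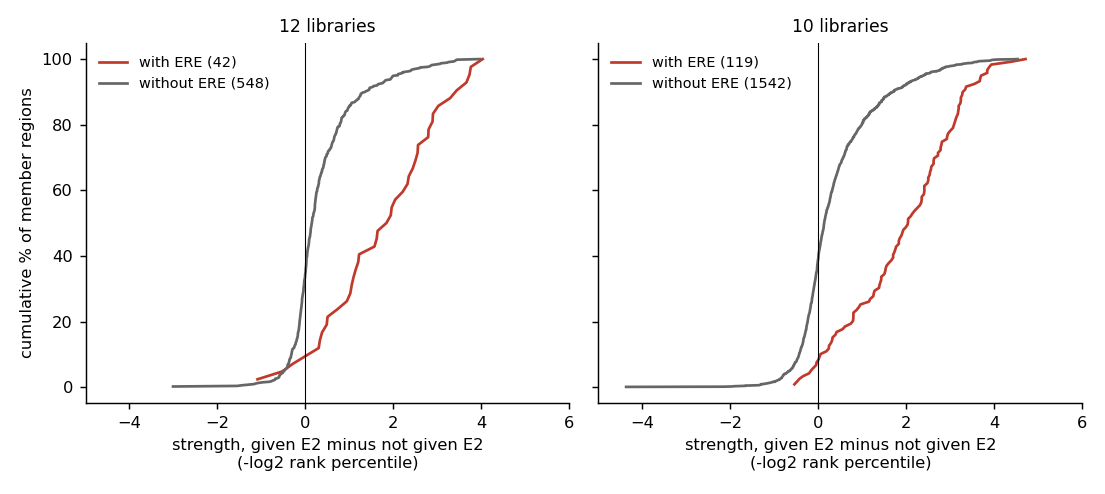
Cumulative percent of member regions by their difference in strength, given E2 minus not given E2 on the −log2 rank percentile scale, for regions with and without an ERE, in 12 libraries (42 and 548 regions) and in 10 libraries (119 and 1542 regions). The curve of regions with an ERE lies to the right, with medians of 1.89 and 2.04 against 0.14 and 0.13.

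More matrix genes than coding genes at large had a recurrent member nearest to them, although such members were few. A member region found in at least 10 lists was nearest to 664 of 21924 protein-coding genes (3.03%), and to 11 of 20 collagens and matrix proteins and 5 of 10 fibroblast markers. The matrix genes held 17 of the 2239 recurrent member regions (0.759%). These 2 lists share genes such as Col1a1, Dcn, Lum and Postn. None of 6 muscle lineage, 4 endothelial and 4 immune markers had one, counts too small to set apart from the share of all coding genes. With the nearest coding gene in place of the nearest gene of any type, a recurrent member was assigned to 1474 coding genes (6.72%), 15 of the 20 matrix genes, 7 of the 10 fibroblast markers, 0 of 6 muscle lineage, 2 of 4 endothelial (Cdh5 and Kdr) and 1 of 4 immune markers (Ptprc). Peak lists carry no expression, so these counts describe binding near genes and do not identify the cells.

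The other lists had 4 of 21 Wnt pathway genes, 2 of 14 classic estrogen targets, 2 of 14 YAP/TEAD and mechanosensing genes, 1 of 11 IGF axis genes, 1 of 14 receptor coregulators, 1 of 6 steroid receptors, 1 of 19 TGF-beta pathway genes and 0 of 10 AP-1 family genes. Of 9 E2-responsive genes named in the study text, which were chosen on these samples, 1 (Ccn3) had one, and 4 did by nearest coding gene. The counts have no test, and list genes differ in the size of their intergenic surroundings.

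None of the list members common to all 12 libraries was stronger with E2 in limma, whereas in the 10 libraries several were. Of the 15 matrix gene members tested there 2 were stronger (13.3%) and 1 weaker, and of the 6 at fibroblast markers 1 was stronger, both below the 18.8% of all members. The counts were 3 of 3 for classic estrogen targets, 2 of 5 for Wnt pathway genes, 1 of 1 each for the IGF axis and steroid receptors, and 0 of 3 for YAP/TEAD genes and 0 of 2 for TGF-beta pathway genes. The 3 at classic estrogen targets were 2 near Ccn5 and 1 near Igf1, and that Igf1 member was also the 1 of the IGF axis. The Dcn member 41.0 kb downstream, chr10:97522433-97524697, ranked 12099.5, 7488.5 and 7023.5 of 12343 in vehicle, 275 and 565 in E2, 130, 217 and 238 in E2 plus fulvestrant and 1643 and 2533.5 in fulvestrant. All libraries given E2 were above all others (3.94 ± 0.498, SE, limma, adjusted p = 1.57e-06). The other 2 Dcn members, 10.1 and 12.6 kb upstream, differed by 1.17 and 0.46 and did not pass (limma, adjusted p = 0.0711 and 0.370).

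The Igf1 member, 36.2 kb upstream of the gene of insulin-like growth factor 1, ranked 2867.5, 1250 and 1991.5 in vehicle, 339.5 and 1353 in E2, 2061, 358 and 407 in E2 plus fulvestrant and 4966.5 and 7535.5 in fulvestrant. Here E2 replicate 3 and E2 plus fulvestrant replicate 1 overlapped with vehicle, and the difference was 2.35 ± 0.551 (SE; limma, adjusted p = 0.00326). The Fbn1 member 18.3 kb upstream of the fibrillin gene differed by 2.52 ± 0.527 (SE; limma, adjusted p = 0.000962), and the same libraries overlapped with vehicle. The Fbn1 member 23.2 kb upstream differed by 1.09 and did not pass (limma, adjusted p = 0.0511). The Wnt antagonist genes Sfrp1 and Sfrp2 each had a member that was stronger, by 2.03 and 1.46 (limma, adjusted p = 0.00217 and 0.0298). At both, E2 plus fulvestrant replicate 1 overlapped with vehicle. The Sfrp1 members 40.8 and 42.8 kb downstream differed by 0.317 and 0.819 and did not pass (limma, adjusted p = 0.491 and 0.300).

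Esr1, the gene of the receptor itself, had a member 20.8 kb upstream at chr10:4590562-4592514 that ranked high in most libraries. The ranks were 167, 179 and 71 in vehicle, 85 and 108 in E2, 162, 101 and 199 in E2 plus fulvestrant and 1729 and 519 in fulvestrant. Vehicle and the libraries given E2 overlapped and the fulvestrant libraries were the lowest, with a difference of 1.55 ± 0.508 for E2 given against not given (SE; limma, adjusted p = 0.0478). The 2 recurrent Ccn5 members, 22.2 and 19.4 kb upstream, were stronger by 1.66 and 1.02 (limma, adjusted p = 0.0104 and 0.0268). At the second, E2 plus fulvestrant replicate 1 overlapped with vehicle.

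Other matrix genes had members that did not pass or went the other way. The Col3a1 member 11.7 kb upstream differed by 1.34 and the Loxl1 member 27.9 kb downstream by −1.35 (limma, adjusted p = 0.0882 and 0.179). The Col6a1 member 18.3 kb downstream was weaker with E2, by −1.96 ± 0.606 (SE; limma, adjusted p = 0.0326), with ranks 406.5, 83 and 492 in vehicle, 694.5 and 1882 in E2, 2197, 539 and 247 in E2 plus fulvestrant and 280 and 139 in fulvestrant. E2 plus fulvestrant replicate 3 overlapped with vehicle and fulvestrant there.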

How the data were processed

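Per the labels and methods, the authors used Trimmomatic 0.39 for trimming, Bowtie2 for alignment to mm10, Picard 2.21.4 against duplicates and MACS2 to call the peaks of each library. The deposited lists give a score, a fold ratio over background, and −log10 p and −log10 q per peak, with no counts. Members and lists were chosen with earlier results of these data known. Summits were classed against GENCODE vM21 basic, and named genes followed a fixed rule: the 10 strongest regions in all 12 lists, the 10 genes with most recurrent regions, the 5 smallest adjusted p-values per direction, the best separating regions and list genes. Motifs were searched within 100 bp of summits, on both strands. Library measures were compared by two-sided exact permutation tests with Benjamini-Hochberg adjustment over 7 comparisons. limma 3.58.1 in R 4.3.3 used trend and Benjamini-Hochberg adjustment over all common regions, and was tested on simulated data. Fold and p are not normalized between lists, so ranks were used. An input library was not analysed here.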

Additional observations from a re-analysis of the deposited data

How the results depend on the processing

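Over all alternatives to the results that answer a comparison, 457 values kept their direction and side of the threshold or stayed within 1.5 times the count, 92 counts moved further, 17 calls were lost, 4 were gained and 8 values reversed. The cause was not tested except where the construction gives fewer libraries or peaks. Members minus intergenic peaks beyond 50 kb in median rank percentile, uncalled throughout, reversed to 0.0229 at q of at most 0.05, 0.268 at −log10 q of at least 10, 0.406 with protein-coding genes only and 1.03 ranked by fold enrichment. At −log10 q of at least 10, libraries given E2 minus the others gained calls in number (1819) and share (8.85), the ERE share turned to −0.516, the strongest 10% measure was 1.74, members minus intronic were −2.40 in rank percentile and −2.53 in ERE share, the ERE share of the 500 strongest against beyond 50 kb was 0.608, sharing differed from intronic by 0.542 and from beyond 50 kb by 1.12, 48 member regions were in all lists, and separating counts were 39 (E2, not E2 plus fulvestrant), 6 (reverse) and 217 (E2 plus fulvestrant, not vehicle). At q of at most 0.05 the sharing difference from beyond 50 kb was 1.09 and the reverse count 30. Without repeat-masked peaks the E2 minus E2 plus fulvestrant share was −0.664, the strongest 10% measure 3.26, and separating counts 49 and 81 (E2, not E2 plus fulvestrant; E2, not vehicle). Without E2 replicate 1 and fulvestrant replicate 2 these were 3.71, 841 and 2055 with 1661 regions in all lists, and with repeat-masked peaks also removed, an alternative chosen after seeing the data, 3.88, 778 and 1940 with 1406, and a sharing difference of 0.654. With protein-coding genes only, members minus intronic in ERE share was 0.120, and the ERE share of the 500 strongest against beyond 50 kb reversed to −7.68. Matching summits within 200 bp gave 206 regions in all lists and separating counts of 52, 159 and 100, and at least 2 of 3 against 0 of 3 gave 1068, 460, 2316 and 1664. The strength count of 39 was 7 with normal scores, 21 ranked by fold, 4 at −log10 q of at least 10, 313 (and 8 weaker) without both libraries and 292 (and 5) with repeat-masked peaks also removed. The E2 minus E2 plus fulvestrant count was 0 with normal scores, by fold and at −log10 q of at least 10. E2 against vehicle had 135 and 121 without both libraries, and E2 plus fulvestrant against vehicle had 0 with normal scores and at −log10 q of at least 10, 2 by fold, 8 at q of at most 0.05, 2 without repeat-masked peaks, and 191 and 175 without both libraries. Leaving out 1 library gave 0.689 to 1.43 (ERE share), 8.32 to 13.6 (500 strongest), 1.39 to 2.93 (sharing against beyond 50 kb), 572 to 1185 regions in all lists, separating counts of 78 to 834, 45 to 338, 157 to 2048 and 402 to 1371, and strength counts of 13 to 219 stronger and 0 to 1 weaker with E2, 0 to 1 for E2 minus E2 plus fulvestrant, 0 to 79 for E2 and 0 to 118 for E2 plus fulvestrant against vehicle. With the replicate number as a replicate block, 50 members were stronger with E2 and 30 in E2 plus fulvestrant than vehicle, and no other call changed. The numbers did not pair the samples: 7 of 18 same-number correlations of deviations were above 0.1 (range −0.534 to 0.421), and 6 of 12 libraries correlated best with their own number. The counts of members under these alternatives are given without the shares over all regions. Peak lists without read counts limit strength to ranks.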

Other observations

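TEAD, RUNX and NFI letters were also counted within 100 bp of member summits. ACATTCC, the site of the TEAD factors that pair with YAP, was found at 4.14% of members and 2.83% of background windows (exact sign-flip permutation test over 12 libraries, adjusted p = 0.0117, higher in 10 of 12). TGTGGTT, the RUNX site, was found at 4.94% and 5.13% (exact permutation test, adjusted p = 0.683). The NFI letters TTGGC and GCCAA with 5 bases between them were found at 0.0355% and 0.0126% (exact permutation test, adjusted p = 0.00391, higher in 11 of 12). Members differed from promoter peaks in TEAD (2.22%) and RUNX (2.85%), each with an adjusted p of 0.00234 in the exact permutation test. In the same test RUNX did not differ from intronic peaks (4.82%, adjusted p = 0.268) or peaks beyond 50 kb (5.03%, adjusted p = 0.681). TEAD differed from intronic peaks (3.89%, adjusted p = 0.0117) but not from peaks beyond 50 kb (4.36%, adjusted p = 0.245, same test).

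Among the 39 members stronger with E2 in 12 libraries were regions near D730003K21Rik, 168 kb from the TSS of the TGF-beta receptor gene Tgfbr2 (3.42 ± 0.650, SE, limma, adjusted p = 0.00881), near 4930402H05Rik, 6.99 kb from the TSS of the matrix gene Fbln2 and with an ERE (3.29 ± 0.649, adjusted p = 0.00994), and near Cilp, a matrix gene of cartilage (2.4 ± 0.565, adjusted p = 0.0279). These 3 were picked after their values were seen.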
